A study of Mus musculus with 6 samples.

Results

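The genes of fatty acid and glycerolipid synthesis were followed in mouse tumor organoids (MTOs), epithelial cultures grown from intestinal tumors, that had been targeted for either of the atypical protein kinase C genes. The set held 38 genes out of 20756 listed identifiers. They were taken by name for their place in the pathway, from the acetyl-CoA that starts a chain to the lipid droplet and the phospholipid that store or use it. Earlier results of these data were known when they were chosen. All 38 were listed, and 35 passed a filter of at least 5 CPM (reads per 1000000 counted reads) in at least 3 libraries. Acacb, Fads2 and Gpam did not.

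Untreated C57BL/6 MTOs carrying a guide RNA against Prkci, the gene of PKCλ/ι (sgPrkci), were compared with MTOs carrying a guide against Prkcz, the gene of PKCζ (sgPrkcz). Each group had 3 libraries, called biological replicates without saying what separated them, so that the spread behind each p-value may in part be technical. Both groups were grown in the same medium (advanced DMEM/F12 with B-27 and EGF). Which tumor alleles these MTOs carried, and whether a group was a single clone, the sources used here do not say. No control guide library was analysed here, so every direction is given for sgPrkci against sgPrkcz. Group names are those of the sample labels. A source data sheet of the study heads the same columns with the guides exchanged, and under those headings each direction below would turn round.

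A fatty acid is built in the cytosol from acetyl-CoA. Acetyl-CoA carboxylase turns it into malonyl-CoA, fatty acid synthase joins these units into palmitate at the cost of NADPH, and enzymes of the endoplasmic reticulum then lengthen the chain and place double bonds in it. A synthetase couples the chain to CoA, after which acyltransferases place it on glycerol to give phosphatidate, and the lipins remove the phosphate to give diacylglycerol, from which both triglyceride and the main phospholipids are made. Intestinal epithelium is known for packing absorbed fat into triglyceride, and many of these genes are known targets of the SREBP transcription factors.

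RNA was read by 3′ tag sequencing, at 1593480 to 2815760 recovered reads per library, so that a single read was worth 0.355 to 0.628 CPM. Prkci measured 52.4 ± 4.99 CPM in sgPrkci, against 55.5 ± 19.2 CPM in sgPrkcz (SD, n = 3 each), and Prkcz 3.38 ± 1.18 CPM in sgPrkci, against 3.64 ± 1.20 CPM in sgPrkcz. Tags at the 3′ end need not change when a guide cuts elsewhere in a gene, so these levels do not check the labels. Epithelial markers were present, with a summed level over 9 genes of 3690 to 4091 CPM in sgPrkci, against 4453 to 4752 CPM in sgPrkcz, although Cdx1 was at 0 in each library. Single markers differed in direction. Epcam (mean 771 CPM in sgPrkci, 548 CPM in sgPrkcz) and Vil1 (93.1 and 46.1 CPM) were higher in sgPrkci. Cdh1 (890 and 1264 CPM) and Cdx2 (12.5 and 16.9 CPM) were at lower levels, and Krt8 overlapped. Of the adipocyte markers 3 of 7 were listed, with a summed level of at most 0.467 CPM in sgPrkci, against 0 in sgPrkcz, and Retn at 0 throughout. Fibroblast, endothelial and hepatocyte lists each summed to at most 2.80 CPM. Of the immune markers 3 of 8 were listed. They summed to 7.94 to 12.4 CPM in sgPrkci, against 4.10 to 7.42 CPM in sgPrkcz, nearly all of it Cd68, while Ptprc, which defines leukocytes, measured at most 1.51 CPM. The rRNA-like transcripts Gm42418, mt-Rnr1 and mt-Rnr2 took 21.2 to 24.0% of the reads in sgPrkci and 17.6 to 19.4% in sgPrkcz. The part that these differences had in the results was not tested, apart from a fit without the rRNA-like transcripts. Over all 9558 fitted genes the median of the log2 fold changes was -0.11, and it became 0.0016 once CPM was rescaled by TMM factors (a scaling that takes most genes as unchanged), so changes near -0.11 lie at the level of the bulk of genes.

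The set did not move as a block. By limma on log2(CPM + 1), with Benjamini-Hochberg adjustment over all fitted genes and a threshold of 0.05, 9 of the 35 fitted genes rose in sgPrkci, 10 fell and 16 stayed short of it. That is 25.7% higher and 28.6% lower, against 14.4% and 26.5% of all fitted genes (40.9% in either direction). After TMM rescaling 10 were higher and 9 lower, against 20.7% and 19.8% of all fitted genes. The share of lower genes was close to that of all genes under the main scaling, and nothing particular to the set is read from either share. Of the 10 lower genes Agpat4 passed the filter only through its sgPrkcz libraries. Without the rRNA-like genes 36 were fitted, of which 10 were higher and 10 lower, and the share over all genes was not computed for that fit. There Me1 lost its call, and Fads2, under the filter in the main fit, was called lower (-0.93, adjusted p = 0.0255). In 19 of the 35 the 3 sgPrkci libraries and the 3 sgPrkcz libraries did not overlap, against 50.0% of all fitted genes. The median log2 fold change of the 35 was -0.01, which is 0.10 above that of all genes, and the single genes lay between -1.40 and 0.85. Bulk RNA cannot tell fewer cells of a kind from less RNA per cell.

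**Figure D1:**
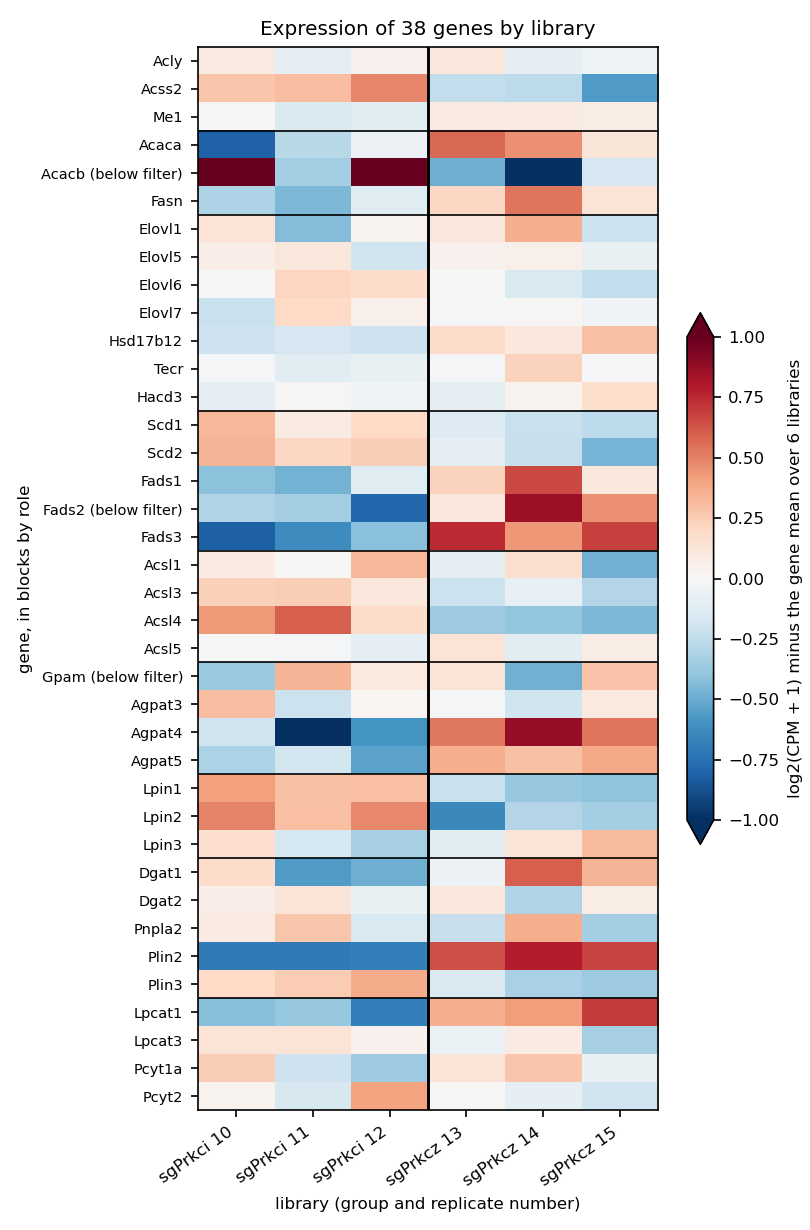
Level of each of the 38 genes (rows, in blocks by role) in each of the 6 libraries (columns, sgPrkci left of sgPrkcz). The color gives log2(CPM + 1) minus the mean of that gene over the 6 libraries, and values past 1 in either direction take the end color. Plin2, Fads3 and Agpat5 were low in the 3 sgPrkci libraries and high in the 3 sgPrkcz libraries, and Lpin1, Lpin2 and Acsl4 ran the other way.

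The start of the pathway was split. Among the genes that supply cytosolic acetyl-CoA and NADPH, Acss2, which makes acetyl-CoA from acetate, was higher in sgPrkci, whereas Acly, which makes it from citrate, did not differ beyond its spread. Acss2 (chromosome 2, 155517948 to 155585724, GRCm38) measured 54.3, 55.6 and 63.2 CPM in sgPrkci, against 37.5, 37.0 and 29.8 CPM in sgPrkcz (0.72 ± 0.14 SE as log2 fold change, adjusted p = 0.000197). The lowest sgPrkci library was above the highest sgPrkcz library. The last 1000 bases of Acss2 overlap Gss on the other strand, as those of Elovl1, Acsl5, Agpat5, Lpcat3 and Pcyt1a overlap another gene, and the sources used here do not say whether counting used strand. Acly measured 63.7 ± 4.30 CPM in sgPrkci, against 62.6 ± 4.68 CPM in sgPrkcz (SD, n = 3 each), with a log2 difference whose 95% interval ran from -0.21 to 0.26. Me1, the cytosolic malic enzyme that yields NADPH, measured 821, 739 and 749 CPM in sgPrkci, against 867, 869 and 861 CPM in sgPrkcz (-0.17 ± 0.07 SE as log2 fold change, adjusted p = 0.0487). Its groups did not overlap, but the difference is close to the shift of all genes, and after TMM rescaling it was -0.06 (adjusted p = 0.557). The Me1 call was also lost without sgPrkci replicate 11 or 12, or without any one sgPrkcz library (adjusted p = 0.0853 to 0.158).

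The pair of enzymes that commit acetyl-CoA to a new chain was lower in sgPrkci. Fasn, the fatty acid synthase (chromosome 11, 120805846 to 120824547), measured 66.8, 60.2 and 76.0 CPM in sgPrkci, against 95.7, 120.5 and 91.3 CPM in sgPrkcz (-0.59 ± 0.12 SE as log2 fold change, adjusted p = 0.00044). Acaca, the cytosolic acetyl-CoA carboxylase (chromosome 11, 84129672 to 84401651), measured 9.05, 13.5 and 16.0 CPM in sgPrkci, against 25.2, 23.2 and 18.1 CPM in sgPrkcz (-0.76 ± 0.22 SE as log2 fold change, adjusted p = 0.00709). Neither gene had overlapping groups, and in both the fall was larger than the shift of all genes. The call of Acaca rested on fewer reads (24 to 68 per library, and 22.4% of the 50-base stretches at its 3′ end also occur in the annotated transcript Gm5182) and was lost without sgPrkci replicate 10 (adjusted p = 0.0641) and by DESeq2 on recovered reads (adjusted p = 0.0709). Acacb, the carboxylase of the mitochondrial surface, failed the filter at 4.53, 0.934 and 4.26 CPM in sgPrkci, against 0.742, 0 and 1.17 CPM in sgPrkcz, at most 12 reads (2-sided exact permutation p = 0.2). The summed level of the 3 genes was 83.8 ± 11.2 CPM in sgPrkci, against 125 ± 16.9 CPM in sgPrkcz (SD, n = 3 each), with no overlap.

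Most of the elongation cycle did not pass the test. The cycle adds a pair of carbons to an existing chain in a round of reactions, of which an Elovl enzyme takes the condensing step. Elovl6, which extends palmitate to stearate, measured 104, 122 and 119 CPM in sgPrkci, against 105, 94.1 and 88.4 CPM in sgPrkcz (0.26 ± 0.10 SE as log2 fold change, adjusted p = 0.0469). Its lowest sgPrkci library lay below the highest sgPrkcz library, and 8.73% of the 50-base stretches at its 3′ end also occur in Gm11295. The call was lost in 6 of 17 alternatives, among them those without sgPrkci replicate 11 (adjusted p = 0.159) or 12 (0.136) and without sgPrkcz replicate 14 (0.0931) or 15 (0.161). Hsd17b12, the ketoacyl reductase of the cycle, measured 211, 217 and 211 CPM in sgPrkci, against 276, 262 and 298 CPM in sgPrkcz (-0.38 ± 0.08 SE as log2 fold change, adjusted p = 0.000535), with a clear gap between the groups. The condensing enzymes Elovl1, Elovl5 and Elovl7, the dehydratase Hacd3 and the enoyl reductase Tecr had log2 differences between -0.17 and 0.02 and adjusted p of 0.328 or more. Elovl5, which extends polyunsaturated chains, measured 244 ± 28.1 CPM in sgPrkci, against 245 ± 11.5 CPM in sgPrkcz (SD, n = 3 each), and its interval ran from -0.19 to 0.17. Tecr was the one gene of the 16 uncalled ones whose groups did not overlap, and 5.67% of its 3′ stretches also occur in AC159187.1.

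The desaturases divided by family. Both stearoyl-CoA desaturases, which place the first double bond in a saturated chain to give oleate and palmitoleate, were higher in sgPrkci, and the Fads genes were at lower levels. Scd2 (chromosome 19, 44293674 to 44306864, plus strand) measured 1881, 1709 and 1760.1 CPM in sgPrkci, against 1386, 1264 and 1073 CPM in sgPrkcz (0.53 ± 0.08 SE as log2 fold change, adjusted p = 1.41e-05). Scd1 (chromosome 19, 44394455 to 44407879, minus strand) measured 387, 324 and 353 CPM in sgPrkci, against 280.4, 262 and 255 CPM in sgPrkcz (0.41 ± 0.08 SE as log2 fold change, adjusted p = 0.000311). In each of the pair every sgPrkci library exceeded every sgPrkcz library, and neither shared a 50-base stretch of its last 500 transcript bases with another gene. The ratio of Scd1 to Scd2 overlapped between the groups, with a log2 difference of -0.12 (exact permutation p = 0.2, adjusted p = 0.275).

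Fads1 and Fads2 code for the front-end desaturases that make polyunsaturated fatty acids, and Fads3 for a relative that acts on sphingoid bases. The 3 genes neighbour each other on chromosome 19 between 10041569 and 10196877. Fads3 measured 10.6, 12.1 and 14.2 CPM in sgPrkci, against 33.0, 26.4 and 31.6 CPM in sgPrkcz (-1.24 ± 0.19 SE as log2 fold change, adjusted p = 1.46e-05). Fads1 measured 13.2, 12.6 and 16.3 CPM in sgPrkci, against 21.1, 28.9 and 19.3 CPM in sgPrkcz (-0.67 ± 0.20 SE as log2 fold change, adjusted p = 0.0101). For both the highest sgPrkci library lay below the lowest sgPrkcz library, and Fads3 shared 0.464% of its 3′ stretches with Fads2. The Fads1 call was lost without sgPrkcz replicate 14 (adjusted p = 0.0693) and by DESeq2 on recovered reads (adjusted p = 0.11). Fads2 stood just under the filter, with 3.39, 3.27 and 2.13 CPM in sgPrkci, against 4.82, 8.79 and 6.44 CPM in sgPrkcz, 6 to 14 reads per library, and these did not overlap either (exact permutation p = 0.1, the smallest that 3 against 3 libraries allow). The summed level of the 5 desaturase genes was 2167 ± 119 CPM in sgPrkci, against 1567 ± 171 CPM in sgPrkcz (SD, n = 3 each), and was carried by Scd2.

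Of the 4 long-chain acyl-CoA synthetases, which trap a free fatty acid as its CoA ester, Acsl3 and Acsl4 were higher in sgPrkci. Acsl4, the synthetase that prefers arachidonate (chromosome X, 142317993 to 142390535), measured 326, 367 and 276 CPM in sgPrkci, against 188, 184 and 177 CPM in sgPrkcz (0.81 ± 0.09 SE as log2 fold change, adjusted p = 3.35e-07). Acsl3, which sits on the endoplasmic reticulum and nascent droplets, measured 307, 309 and 282 CPM in sgPrkci, against 224, 245 and 212 CPM in sgPrkcz (0.40 ± 0.08 SE as log2 fold change, adjusted p = 0.000457). There was no overlap in either gene. The ratio of Acsl4 to Acsl3 did not overlap between the groups and was 0.41 higher in sgPrkci on the log2 scale. Acsl5, abundant in intestinal epithelium, measured 133 ± 4.92 CPM in sgPrkci, against 140.4 ± 12.3 CPM in sgPrkcz, with overlapping groups (SD, n = 3 each; adjusted p = 0.574). Acsl1 overlapped too, at 18.6 ± 2.38 CPM in sgPrkci, against 15.4 ± 3.57 CPM in sgPrkcz (adjusted p = 0.298). The summed level of the 4 genes was 774 ± 61.4 CPM in sgPrkci, against 566 ± 18.4 CPM in sgPrkcz.

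Of the 4 genes here that transfer chains to the glycerol backbone, 3 were fitted and 2 of these were lower. Agpat5, an acyltransferase that turns lysophosphatidate into phosphatidate (chromosome 8, 18846277 to 18891361), measured 63.0, 69.1 and 54.0 CPM in sgPrkci, against 101, 96.6 and 102 CPM in sgPrkcz (-0.69 ± 0.11 SE as log2 fold change, adjusted p = 3.41e-05). Agpat4, of the same family, measured 4.53, 1.87 and 3.20 CPM in sgPrkci, against 8.16, 10.7 and 8.19 CPM in sgPrkcz (-1.29 ± 0.30 SE as log2 fold change, adjusted p = 0.00134), which is 4 to 22 reads per library. Both were lower in each sgPrkci library than in any sgPrkcz library, and Agpat4 would not have been tested without its level in sgPrkcz. Agpat3 measured 36.8 ± 6.93 CPM in sgPrkci, against 34.5 ± 3.65 CPM in sgPrkcz (SD, n = 3 each; adjusted p = 0.721). Gpam, the mitochondrial enzyme of the acylation before these, had 1 to 4 reads per library (1.35 ± 0.560 CPM in sgPrkci, against 1.29 ± 0.589 CPM in sgPrkcz, exact permutation p = 0.8), too few for a difference to be detectable.

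At the step after phosphatidate is made, 2 of the 3 lipins were higher in sgPrkci. Lipins are phosphatidate phosphatases that give diacylglycerol, and in the nucleus lipin 1 is known also as a coregulator of transcription. Lpin2 (chromosome 17, 71182560 to 71249817) measured 62.6, 54.6 and 61.8 CPM in sgPrkci, against 27.8, 35.8 and 34.5 CPM in sgPrkcz (0.85 ± 0.14 SE as log2 fold change, adjusted p = 3.01e-05). By limma it had the largest increase of the 35 genes, and its 3′ end lies over a lincRNA of the same strand, Gm26561, whose reads could be counted with it. Lpin1 (chromosome 12, 16535669 to 16610966) measured 74.7, 68.7 and 69.3 CPM in sgPrkci, against 47.8, 42.7 and 42.1 CPM in sgPrkcz (0.67 ± 0.12 SE as log2 fold change, adjusted p = 9.57e-05). Every sgPrkci library exceeded every sgPrkcz library in both. Lpin3 measured 8.93 ± 1.80 CPM in sgPrkci, against 10.6 ± 1.69 CPM in sgPrkcz (SD, n = 3 each; adjusted p = 0.47), and the ratio of Lpin1 to Lpin3 was 0.90 higher in sgPrkci on the log2 scale, with no overlap. The summed level of the 3 lipins was 139 ± 8.30 CPM in sgPrkci, against 87.5 ± 2.58 CPM in sgPrkcz.

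**Figure D2:**
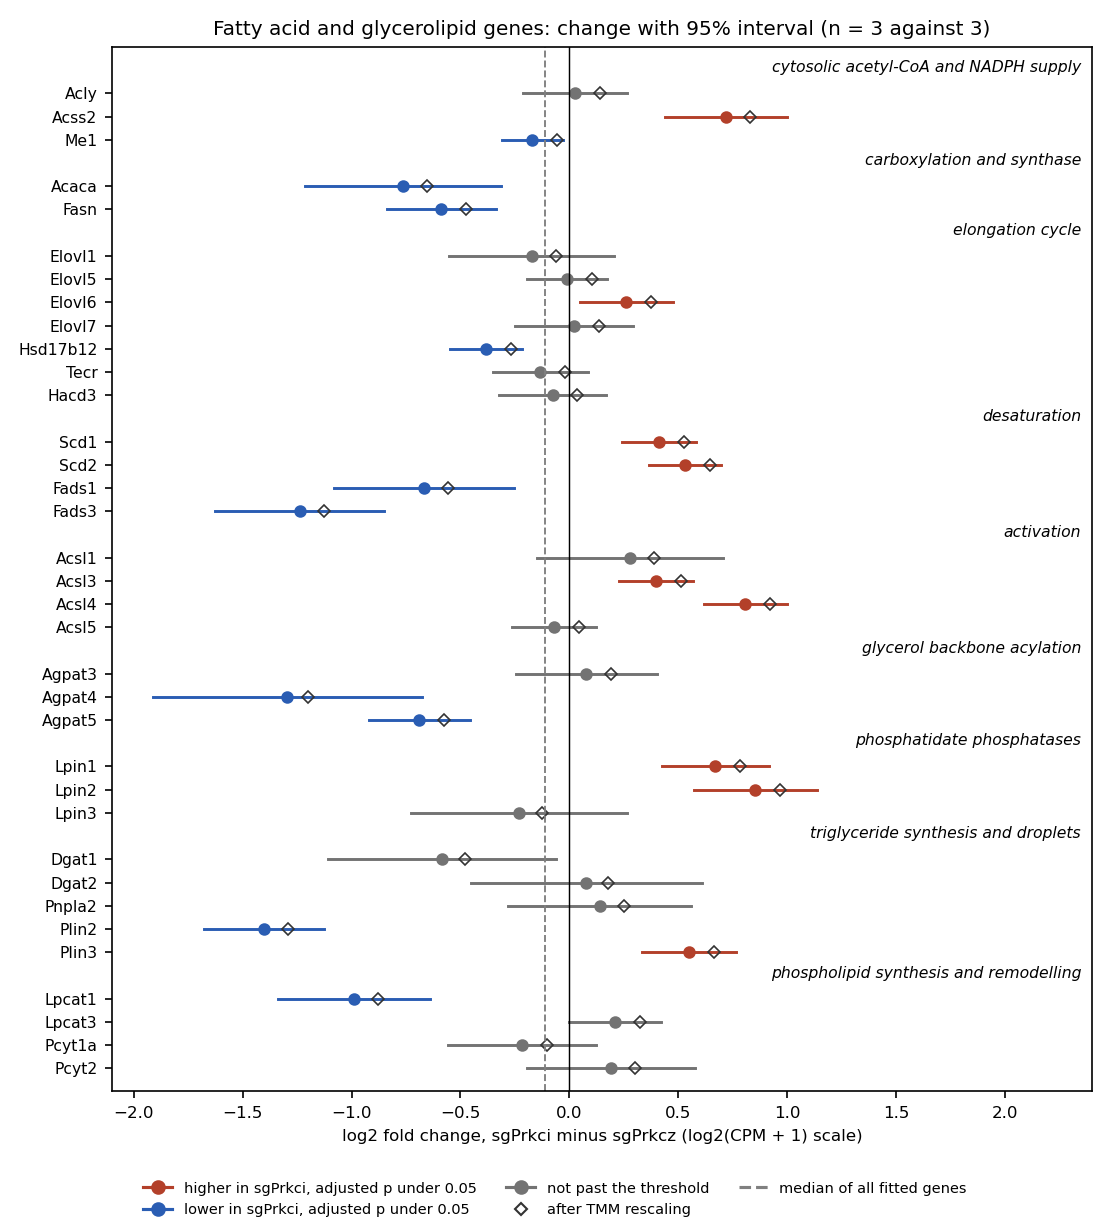
Log2 fold change of the 35 fitted genes, sgPrkci minus sgPrkcz, in blocks by role, with the 95% interval (line) and the value after TMM rescaling (diamond). The 9 genes higher and 10 lower at an adjusted p under 0.05 are colored, the 16 others are grey, and the dashed line marks the median of all fitted genes at -0.11. Acaca, Fasn and both called Agpat genes lie left of it, and the Scd genes, Acsl3, Acsl4, Lpin1 and Lpin2 lie right of 0.

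The genes of the lipid droplet coat moved apart. Plin2, the perilipin that coats droplets outside fat tissue and is broken down when it is not on a droplet (chromosome 4, 86648386 to 86670060), measured 23.4, 23.4 and 23.8 CPM in sgPrkci, against 61.2, 67.8 and 62.6 CPM in sgPrkcz (-1.40 ± 0.13 SE as log2 fold change, adjusted p = 2.62e-08). By limma on log2(CPM + 1) this was the largest decrease among the 35 genes (by DESeq2 Agpat4 stood at -1.34 and Plin2 at -1.32), with a wide gap between the groups, and 2.38% of its 3′ stretches also occur in Gm12551. Plin3, a perilipin that moves between cytosol and nascent droplets (chromosome 17, 56277476 to 56292873), measured 105, 109 and 118 CPM in sgPrkci, against 82.7, 72.8 and 70.8 CPM in sgPrkcz (0.55 ± 0.10 SE as log2 fold change, adjusted p = 0.000194). The log2 ratio of Plin2 to Plin3 was -2.12, -2.18 and -2.27 in sgPrkci and -0.43, -0.10 and -0.17 in sgPrkcz, a difference of -1.95 and the largest of the 11 pairs tested.

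Dgat1, Dgat2 and Pnpla2, the enzymes of the set that fill or empty the droplet, did not pass. Other droplet and lipolysis genes, outside the set and counted below, included some that passed as higher. Dgat1 and Dgat2, which join the last chain to diacylglycerol, measured 8.97 ± 3.02 and 7.41 ± 0.607 CPM in sgPrkci, against 13.8 ± 3.29 and 7.01 ± 1.19 CPM in sgPrkcz (SD, n = 3 each). These rest on 15 to 33 and 9 to 21 reads per library. The log2 difference of Dgat2 had a 95% interval from -0.45 to 0.61 (adjusted p = 0.828). Dgat1 had a log2 fold change of -0.58 ± 0.25 SE (adjusted p = 0.0678) with overlapping groups, and it passed without sgPrkci replicate 10 (adjusted p = 0.0261) or without sgPrkcz replicate 13 (adjusted p = 0.0318). Pnpla2, the lipase that starts triglyceride breakdown, measured 21.5 ± 3.32 CPM in sgPrkci, against 19.7 ± 5.77 CPM in sgPrkcz (adjusted p = 0.616). Adipocyte markers were at or near 0 in both groups, and Cd68, a macrophage and lysosome marker, measured 10.1 ± 1.87 CPM in sgPrkci, against 5.47 ± 1.30 CPM in sgPrkcz, whose part in the droplet genes was not tested.

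In phospholipid synthesis and remodelling 1 of 4 genes passed. Lpcat1, which returns a saturated chain to lysophosphatidylcholine (chromosome 13, 73467197 to 73516422), measured 18.5, 19.1 and 15.3 CPM in sgPrkci, against 32.6, 33.9 and 41.5 CPM in sgPrkcz (-0.99 ± 0.17 SE as log2 fold change, adjusted p = 6.54e-05), with no overlap. Lpcat3, which returns a polyunsaturated chain, measured 143 ± 5.19 CPM in sgPrkci, against 124 ± 17.8 CPM in sgPrkcz (SD, n = 3 each; 0.21 ± 0.10 SE as log2 fold change, adjusted p = 0.105). The groups of Lpcat3 overlapped, and it passed as higher in 7 of 17 alternatives, TMM rescaling among them (0.32, adjusted p = 0.0105) and the fit without sgPrkcz replicate 14 (0.30, adjusted p = 0.0293). Pcyt1a and Pcyt2, which activate choline and ethanolamine for phosphatidylcholine and phosphatidylethanolamine, had log2 differences of -0.22 and 0.19 (adjusted p = 0.311 and 0.44) with overlapping groups.

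A ratio of 2 genes within a library does not depend on how the libraries are scaled to each other, apart from the pseudocount. Of 13 pairs of related genes, 11 had both genes past the filter, and in 5 the ratio did not overlap between the groups. Besides Plin2 to Plin3, Acsl4 to Acsl3 and Lpin1 to Lpin3 these were Lpcat1 to Lpcat3 (difference -1.20) and Agpat4 to Agpat5 (-0.61), of which Agpat4 passed the filter only through its sgPrkcz libraries, where it is high, so that this pair is no support. With 3 libraries against 3 the exact permutation p cannot fall below 0.1, and no pair had an adjusted p below 0.22. No share over other gene pairs was computed. Taken singly, 50.0% of all fitted genes did not overlap, so nothing particular to the pairs is read from the count of 5. The other 6 pairs, Scd1 to Scd2, Lpin1 to Lpin2, Elovl5 to Elovl6, Acsl5 to Acsl1, Dgat1 to Dgat2 and Pcyt1a to Pcyt2, overlapped, at differences between -0.66 and -0.12. Acaca to Acacb and Fads1 to Fads2 were not tested.

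**Figure D3:**
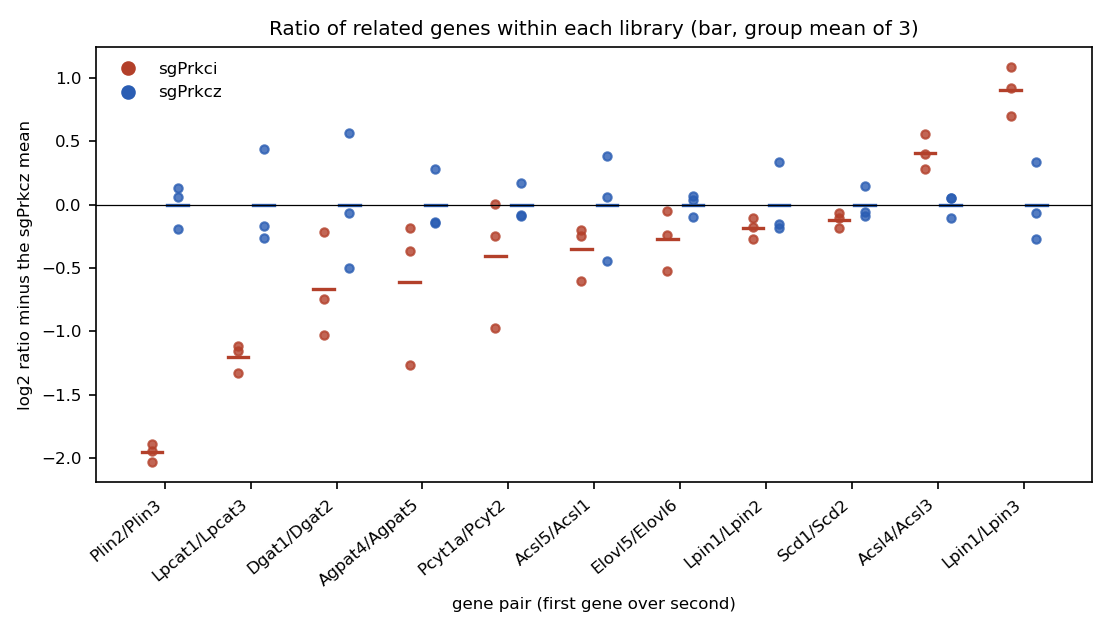
Log2 ratio of related genes within each library (points) for the 11 pairs tested, minus the sgPrkcz mean of that pair, with the group mean as a bar and sgPrkci left of sgPrkcz. Plin2/Plin3 lies 1.95 below the sgPrkcz mean in the mean of sgPrkci, and Lpin1/Lpin3 lies 0.90 above it. Scd1/Scd2 and Lpin1/Lpin2 overlap.

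The proximal promoters were read for motifs known in lipid genes. RefSeq windows of GRCm38.p6, from 250 bases before to 50 bases after a start site, were matched for 31 of the 38 genes (40 windows). Scd1, Scd2, Fads1, Agpat5, Dgat1, Dgat2 and Pcyt2 were not matched. The motifs, searched on both strands, were TCACNCCAC, a form of the sterol regulatory element that SREBP binds, the E-box CACGTG, and CCAAT, and none of the 3 contains another. TCACNCCAC was found in 3 of the 40 windows, 1 of Acsl1 and 2 overlapping ones of Pcyt1a that hold the same site, against 1.24% of all 32851 windows. Neither gene passed the test, and the motif was in none of the 15 called genes with a window. CCAAT was found in 20 of the 40 windows, against 37.4% of all windows. By gene it was in 20 of the 31 genes and 10 of the 15 called ones, for which no share over all genes was computed. CACGTG was found in 5 of the 40 windows, one each of Elovl5, Hacd3, Lpin2, Lpin3 and Plin2, against 7.15% of all windows.

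Plin2 and Lpin2 were the called genes with a CACGTG match, and their windows are shown for that reason, a choice made after their values were seen. Each is given 5′ to 3′ on the strand of its gene with the match in capitals. The match begins 4 bases before the RefSeq start site in Plin2 (chr4:86670010-86670309, minus strand) and 9 bases before it in Lpin2 (chr17:71183282-71183581, plus strand, 1 of its 3 windows).
Plin2: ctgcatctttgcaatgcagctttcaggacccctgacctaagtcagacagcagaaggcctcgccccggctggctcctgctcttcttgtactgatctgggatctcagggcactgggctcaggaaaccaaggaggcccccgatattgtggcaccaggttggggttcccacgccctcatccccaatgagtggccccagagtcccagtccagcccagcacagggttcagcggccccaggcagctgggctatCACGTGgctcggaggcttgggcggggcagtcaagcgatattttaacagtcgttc
Lpin2: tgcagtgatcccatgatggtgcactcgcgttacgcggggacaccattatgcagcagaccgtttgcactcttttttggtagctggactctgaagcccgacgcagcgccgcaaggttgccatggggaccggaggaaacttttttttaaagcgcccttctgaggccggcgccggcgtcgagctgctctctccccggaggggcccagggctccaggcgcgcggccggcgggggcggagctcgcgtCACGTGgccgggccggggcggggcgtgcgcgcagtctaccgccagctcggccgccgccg
The Plin2 match therefore spans the start site of a gene that was lower in sgPrkci, and the Lpin2 match lies just before that of a gene that was higher. A match is a description of these letters and not a binding site.

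Genes around the pathway were counted in lists written by function. Of 143 other fatty acid and glycerolipid genes in 7 lists, 91 were fitted, and 26 (28.6%) were higher and 17 (18.7%) lower in sgPrkci, against 14.4% and 26.5% of all fitted genes. After TMM rescaling 36 were higher and 15 lower, against 20.7% and 19.8% of all fitted genes. Their median was 0.04, which is 0.15 above that of all genes. The other genes of lipid droplets and lipolysis had 6 of 9 higher and none lower, with a median 0.43 above that of all genes, and after TMM rescaling the counts were again 6 and 0. Cidea, a droplet protein that promotes their fusion, measured 27.9, 22.0 and 21.0 CPM in sgPrkci, against 3.34, 3.14 and 1.76 CPM in sgPrkcz (2.73 ± 0.26 SE as log2 fold change, adjusted p = 2.06e-08), and passed the filter only through its sgPrkci libraries. Pnpla3, a lipase-like droplet protein, measured 14.8 ± 2.84 CPM in sgPrkci, against 6.04 ± 0.895 CPM in sgPrkcz, a difference with an adjusted p of 0.000529. Soat1, which esterifies cholesterol for storage, measured 132 ± 21.2 CPM in sgPrkci, against 101 ± 9.16 CPM in sgPrkcz (SD, n = 3 each; adjusted p = 0.00892, 0.0903 without sgPrkci replicate 12 and 0.0811 with no intensity trend). With a library left out 3 or 4 genes of this list passed as higher, 3 without sgPrkci replicate 10 or sgPrkcz replicate 14 and 4 without any of the others, and none as lower. With no intensity trend 2 passed as higher and none as lower, and with no filter 5 as higher and 1 as lower.

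Among other acylation genes 4 of 12 were higher and 4 lower (33.3% each), against 14.4% and 26.5% of all fitted genes. After TMM rescaling 5 were higher and 4 lower, against 20.7% and 19.8% of all fitted genes. Mboat2, which acylates lysophospholipids, measured 66.9 ± 2.92 CPM in sgPrkci, against 32.2 ± 3.10 CPM in sgPrkcz, a difference with an adjusted p of 1.18e-06. Lpgat1, an acyltransferase of the endoplasmic reticulum, measured 159 ± 7.11 CPM in sgPrkci, against 98.4 ± 1.80 CPM in sgPrkcz (SD, n = 3 each; adjusted p = 2.86e-06). Gpat4, which starts glycerolipid synthesis in the endoplasmic reticulum, measured 32.1 ± 4.24 CPM in sgPrkci, against 64.0 ± 13.5 CPM in sgPrkcz (-0.96 ± 0.15 SE as log2 fold change, adjusted p = 2.76e-05). Gpat3, of the same family, went the other way, at 56.0 ± 1.97 CPM in sgPrkci, against 36.4 ± 4.59 CPM in sgPrkcz (0.62 ± 0.13 SE, adjusted p = 0.000756). Of 17 other phospholipid genes 1 was higher and 5 were lower under the main scaling (5.88% and 29.4%), against 14.4% and 26.5% of all fitted genes. The share of lower genes was thus close to that of all genes. After TMM rescaling 5 were higher and 4 lower, against 20.7% and 19.8% of all fitted genes, so the balance of this list turned with the scaling. With a library left out 0 to 3 were higher and 3 to 6 lower, the extremes without sgPrkcz replicate 14 (0 higher), sgPrkcz replicate 13 or 15 (3 higher) and sgPrkci replicate 12 (3 lower) or 10 (6 lower). Ptpmt1, Pgs1 and Crls1, which make cardiolipin in mitochondria, had log2 fold changes of -0.64, -0.66 and -0.43 (adjusted p = 4.91e-05, 0.00128 and 0.00396), and Crls1 did not pass by DESeq2 on recovered reads (-0.33, adjusted p = 0.08).

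Precursor and NADPH supply outside the 38 genes had 3 of 13 higher and 3 lower (23.1% each), against 14.4% and 26.5% of all fitted genes. After TMM rescaling 5 were higher and 3 lower (6 and 3 by edgeR or limma-voom), against 20.7% and 19.8% of all fitted genes. Idh1, the cytosolic NADP-dependent isocitrate dehydrogenase, measured 112 ± 4.44 CPM in sgPrkci, against 65.4 ± 10.3 CPM in sgPrkcz (0.78 ± 0.12 SE as log2 fold change, adjusted p = 1.21e-05). Its mitochondrial counterpart Idh2 measured 91.1 ± 2.87 CPM in sgPrkci, against 142 ± 11.7 CPM in sgPrkcz (-0.63 ± 0.10 SE, adjusted p = 1.61e-05). Pgd, the NADPH-yielding enzyme of the pentose phosphate pathway, measured 148 ± 12.02 CPM in sgPrkci, against 237 ± 4.02 CPM in sgPrkcz (-0.68 ± 0.09 SE, adjusted p = 1.34e-06). Of 8 other chain synthesis genes 2 were higher and 1 lower (25.0% and 12.5%), against 14.4% and 26.5% of all fitted genes. The counts were the same after TMM rescaling. The higher genes were Degs1, the desaturase of ceramide synthesis (1.18 ± 0.11 SE, adjusted p = 1.19e-08), and Hacd1 (0.67 ± 0.11 SE, adjusted p = 4.81e-05). Hacd4 was lower (-1.83 ± 0.33 SE, adjusted p = 0.000103), having passed the filter only through its sgPrkcz libraries. In fatty acid uptake and binding 3 of 11 were higher and 1 lower (27.3% and 9.09%), against 14.4% and 26.5% of all fitted genes. After TMM rescaling 6 were higher and 1 lower, against 20.7% and 19.8% of all fitted genes. Log2 fold changes were 0.77 for the synthetase Acsbg1, 1.11 for the fatty acid binding protein Fabp5 and -1.11 for the thioesterase Acot2 (adjusted p = 6.19e-05, 0.00268 and 0.00519). Acot2 had 6 to 19 reads per library and did not pass by DESeq2 (adjusted p = 0.0676). Fabp5 had 5 to 35 reads per library. At 3.71, 3.14 and 5.27 CPM in sgPrkcz, Fabp5 would not have been tested without its level in sgPrkci. Acot2, at 3.02, 5.14 and 2.13 CPM in sgPrkci, would not have been tested without its level in sgPrkcz.

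The regulators had 7 of 21 higher and 3 lower (33.3% and 14.3%), against 14.4% and 26.5% of all fitted genes. After TMM rescaling 7 were higher and 2 lower, against 20.7% and 19.8% of all fitted genes. With a library left out 4 to 6 were higher and 2 or 3 lower (4 higher without sgPrkci replicate 10), and with no intensity trend 4 were higher. Insig1 and Insig2, which hold the SREBP escort protein in the endoplasmic reticulum when sterols are plentiful, measured 77.2 ± 11.8 and 102 ± 9.25 CPM in sgPrkci, against 40.2 ± 3.68 and 72.5 ± 7.26 CPM in sgPrkcz (SD, n = 3 each; adjusted p = 6.97e-06 and 0.000987). Ppargc1a, a coactivator of oxidative metabolism, measured 37.8 ± 6.09 CPM in sgPrkci, against 16.7 ± 1.62 CPM in sgPrkcz (adjusted p = 1.65e-05). Srebf1 and Srebf2 themselves, which code for the SREBP factors, did not pass, with log2 differences of 0.23 and 0.05 (adjusted p = 0.484 and 0.809). 

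Cholesterol synthesis, which draws on the same acetyl-CoA, had 8 of 20 higher and 2 lower, and 4 to 7 higher and 1 to 3 lower with a library left out (4 higher without sgPrkci replicate 12, 5 without sgPrkcz replicate 13). Hmgcs1 and Msmo1, enzymes of that pathway, had log2 fold changes of 0.74 ± 0.07 SE and 0.52 ± 0.07 SE (adjusted p = 1.84e-08 and 4.06e-06). Fatty acid oxidation had 4 of 19 higher and 2 lower (21.1% and 10.5%), against 14.4% and 26.5% of all fitted genes. After TMM rescaling 8 were higher and 2 lower, against 20.7% and 19.8% of all fitted genes. Without sgPrkci replicate 12 this list had 2 higher. Acadl, a long-chain acyl-CoA dehydrogenase, had a log2 fold change of 0.53 ± 0.08 SE and Eci1, an enoyl-CoA isomerase, one of -0.73 ± 0.15 SE (adjusted p = 2.01e-05 and 0.0006). Cpt1a, which admits fatty acids to the mitochondrion and is inhibited by malonyl-CoA, measured 30.9 ± 1.53 CPM in sgPrkci, against 20.00 ± 3.44 CPM in sgPrkcz (0.62 ± 0.17 SE as log2 fold change, adjusted p = 0.00584).

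**Figure D4:**
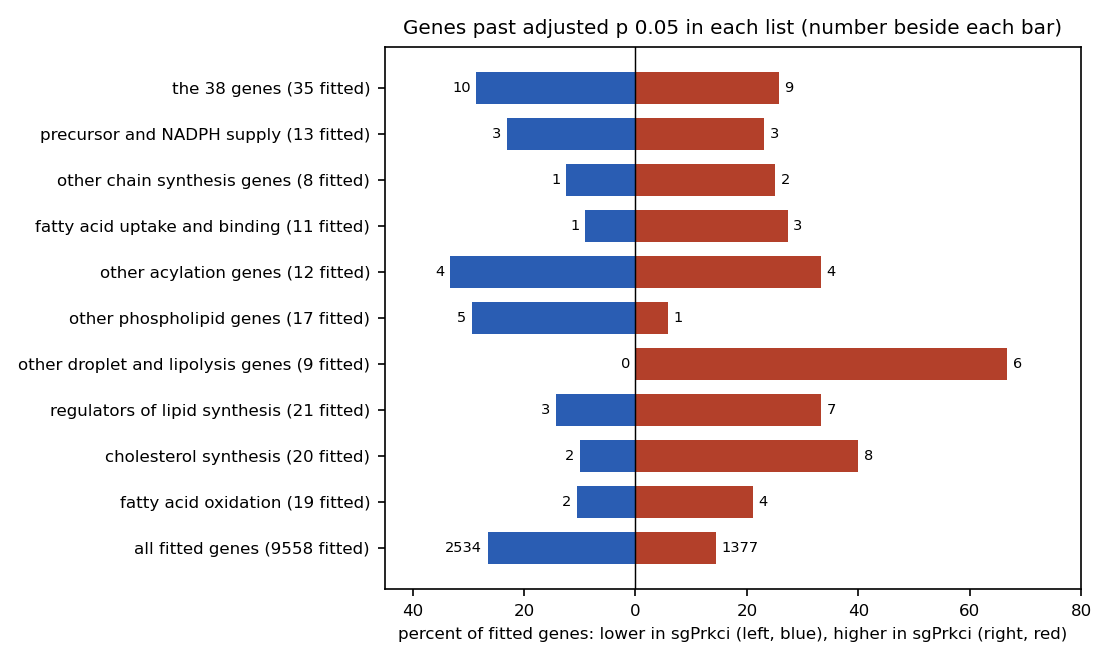
Percent of the fitted genes of each list that were lower (left) and higher (right) in sgPrkci at an adjusted p under 0.05, with the number of genes beside each bar and all fitted genes at the bottom. The other droplet and lipolysis genes stand at 66.7% higher (6 of 9, and 2 with no intensity trend, Cidea having passed the filter only through sgPrkci) and 0 lower, and all fitted genes at 14.4% higher and 26.5% lower.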

How the data were processed

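RNA from 6 untreated MTO cultures was made into QuantSeq 3′ libraries and sequenced single-end. The authors deposited CPM for 20756 mouse Ensembl identifiers (build GRCm38 per the submitters' processing notes), and each column summed to 1000000. The aligner, counter, annotation, strand setting and any collapse of molecular identifiers were not given in the sources used here. All values (100%) were whole multiples of 1 read within 0.01, so reads were recovered. No column was without a sample. Symbols and coordinates came from GENCODE M21, and promoters from RefSeq.

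CPM values were tested as log2(CPM + 1) with limma 3.58.1 in R 4.3.3 (intensity trend, 6 libraries), a scale that understates changes of low genes. Genes under the filter and gene ratios were compared by 2-sided exact permutation tests. The test was checked on simulated data with far fewer changed genes than were called here, so that check does not cover a shift this broad. Recovered reads were also tested with edgeR 4.0.16 (3941 genes called over all genes, against 3911 by limma), DESeq2 1.42.0 (2800 called, fewer than by limma) and limma-voom. Other alternatives were TMM or quantile scaling, removal of rRNA-like genes, other filters, pseudocounts and thresholds, no trend, and leaving out each library.

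All 38 genes are named, and up to 3 genes past the threshold with the smallest adjusted p per list, apart from a result that is not reported here. The Lpin2 and Plin2 promoters, the single epithelial markers, Cd68, Gpat3, Srebf1 and Srebf2 were added after their values were seen. Genes and lists were chosen with earlier results of these data known.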

Additional observations from a re-analysis of the deposited data

How the results depend on the processing

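Of the 19 genes past the threshold, 15 passed in each alternative in which they were tested (8 higher, 7 lower), and 14 of the 16 others passed in none. Me1 lost its call in 14 of 17 alternatives, Elovl6 in 6, and Acaca and Fads1 in 2 each. Lpcat3 gained one in 7 and Dgat1 in 2. Without a filter Acacb (1.30, adjusted p = 0.00881) and Fads2 (-0.95, adjusted p = 0.0489) passed. Fads2 also passed without the rRNA-like genes (-0.93, adjusted p = 0.0255). The counts of higher and lower genes ranged over 8 to 10 and 7 to 10.

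The median of the genes followed the scaling. It was 0.104 with TMM, 0.0538 with quantile normalization, 0.0309 without rRNA-like genes, 0.107 with edgeR, 0.108 with DESeq2 and 0.0997 with limma-voom, and -0.0710 to 0.00743 with a library left out. Reversals were seen for 7 genes that passed in no alternative. Elovl5 was 0.104 (TMM), 0.0538 (quantile), 0.0611 (without rRNA-like genes), 0.107 (edgeR), 0.108 (DESeq2) and 0.0997 (limma-voom). Hacd3 was 0.0364, 0.00202, 0.0466, 0.0414 and 0.0551 with TMM, quantile, edgeR, DESeq2 and limma-voom. Acsl5 was 0.0439, 0.000747, 0.0336, 0.0356 and 0.0342 with TMM, without rRNA-like genes, edgeR, DESeq2 and limma-voom. With a library left out Elovl5 ranged over -0.0710 to 0.0874, Acly over -0.0157 to 0.0839, Elovl7 over -0.0728 to 0.138, Agpat3 over -0.0590 to 0.204 and Dgat2 over -0.0509 to 0.150. No gene ratio reversed. No paired analysis was possible because the replicate numbers of the groups differ.

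Depth limited Acacb, Fads2, Gpam, Agpat4 and Dgat2, which had at most 22 reads in a library. Of the 50-base stretches at the 3′ ends of Acaca, Elovl6, Tecr and Plin2, 22.4, 8.73, 5.67 and 2.38% also occur in another annotated transcript, and the assignment of such reads is uncertain.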
